A study of Mus musculus with 8 samples.

Results

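The cytosolic heat shock genes are 10 of the 55414 genes in the count table: Hspa1a, Hspa1b, Hspa8, Hsph1, Hsp90aa1, Hsp90ab1, Dnajb1, Hspb1, Hsf1 and Bag3. They were chosen by name, through the Ensembl ID that carries each symbol in the GENCODE annotation, and the rule for membership uses no measured value. Expression was measured by bulk RNA-seq of Paneth cells, the granule-filled secretory cells at the crypt base, which had been collected by FACS from the small intestine of mice. The series held 8 libraries, with 4 of genotype DT TG (TG), in which a transgene makes Paneth cells produce diphtheria toxin, and 4 wild type (WT). According to its title, the series asks what the purified cells express once mature Paneth cells have been depleted. The study's methods name C57BL/6J as the strain of its sorted Paneth cells. The promoter that drives the toxin, the age of the mice and the time between the start of toxin production and sorting are stated in no source used here. The study describes its sorted samples in general as taken from single animals, while the labels of these libraries give only replicate numbers, and p-values measure the spread between these libraries.

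Heat shock proteins are chaperones that bind unfolded segments of other proteins, keep them from aggregating and help them to fold. In the cytosol, HSP70 proteins take up a client with the help of J-domain proteins such as DNAJB1, release it with the help of nucleotide exchange factors such as HSPH1 and BAG3, and can pass it on to HSP90. Most of these genes are driven by the transcription factor HSF1, which chaperones hold inactive until unfolded proteins draw them away. Diphtheria toxin stops the elongation step of translation, and newly made chains are major clients of this machinery. Paneth cells make large amounts of secreted protein, which is folded by a separate set of chaperones in the endoplasmic reticulum (ER).

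The libraries held 13107397 to 16218434 counts, and an exact permutation test (two-sided) of the totals between TG and WT gave p = 0.743. Lyz1, the Paneth cell lysozyme, lay between 156072 and 215507 CPM (counts scaled to a fixed library size with TMM factors) in TG and between 143909 and 189409 CPM in WT. Of 13 tested Paneth cell markers, 11 had a negative log2 fold change (TG over WT), with a median of -0.22, and 3 were called lower by edgeR, against 9.65% of all tested genes, namely Mptx2 (-1.35), Mmp7 (-0.59) and Ang4 (-0.57). Uty, Kdm5d, Ddx3y and Eif2s3y, which lie on the Y chromosome, had no counts in replicates 1 and 2 of either genotype and 897 to 1564 counts in replicates 3 and 4, so that each group held both kinds of library and the comparison could be repeated within each. The mitochondrial share of counts ran from 1.15% (95% Wilson interval 1.14 to 1.15) to 1.53% (1.52 to 1.53) in TG and from 0.566% (0.562 to 0.570) to 1.1% (1.09 to 1.11) in WT, without overlap. These intervals cover counting error only. Summed enterocyte markers lay at 560 to 732 CPM in TG and at 502 to 594 CPM in WT, and 6 of the 12 were called higher in TG, against 8.26% of all tested genes, with a list median log2 fold change of 1.66. Of 10 immune markers, 6 had at most 3 counts in any single library, among them Cd3e and Cd79a, which define T and B cells. What the mitochondrial share, the Paneth cell markers and the enterocyte markers contribute to the values below was not tested.

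The question of the comparison was whether the cytosolic heat shock genes of the sorted cells differ between the genotypes. Bag3 was lower in TG, with a level 1.66-fold higher in WT, and no member was higher in TG. Hspa1b, a heat-inducible HSP70 gene of low level, also passed the test at a fitted 9.58-fold difference, but it could be tested mainly through the WT libraries, lost the call when any single TG library was left out, and did not pass when summed with its near copy Hspa1a (edgeR adjusted p = 0.0604). Hsp90aa1, Hspa8 and Hsph1 had WT means 1.59- to 2.07-fold above their TG means but did not pass the threshold, and Hsf1 had nearly equal means. The WT libraries differed among themselves far more than the TG libraries in most of these genes, with WT replicate 4 highest and WT replicate 1 often lowest. In bulk libraries, fewer cells that express a gene and less of its RNA per cell cannot be told apart.

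By edgeR's quasi-likelihood test with Benjamini-Hochberg adjustment at 0.05 over 11929 tested genes, 2 of the 8 tested members were lower in TG, against 9.65% of all tested genes. None was higher, against 8.26% of all tested genes. Hspa1a and Hspb1 had too few counts to be tested. 1 of the 2 called members is Hspa1b, which passed the filter on low counts mainly through the WT libraries, where it was high, and with a filter of 1 CPM in 4 libraries the count was 1, against 9.74% of all genes so tested. Of the 8, 7 had a negative log2 fold change (TG over WT), with a median of -0.70 beside 0.01 over all tested genes. The CPM of all 4 TG libraries lay below that of all 4 WT libraries for 2 members, Hsp90aa1 and Bag3, and for 12.0% of all tested genes. With DESeq2, 3 members were called lower (Bag3, Hsp90aa1 and Hspa1b), against 10.8% of all genes. Scaling by total counts in place of TMM factors moved the median of all genes from 0.01 to 0.12 and the share of higher genes among the calls from 46.1% to 75.02%. The same 7 members were below the median of all genes under both scalings, and the members called lower still numbered 2 with total counts, against 2.20% of all tested genes.

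**Figure D1:**
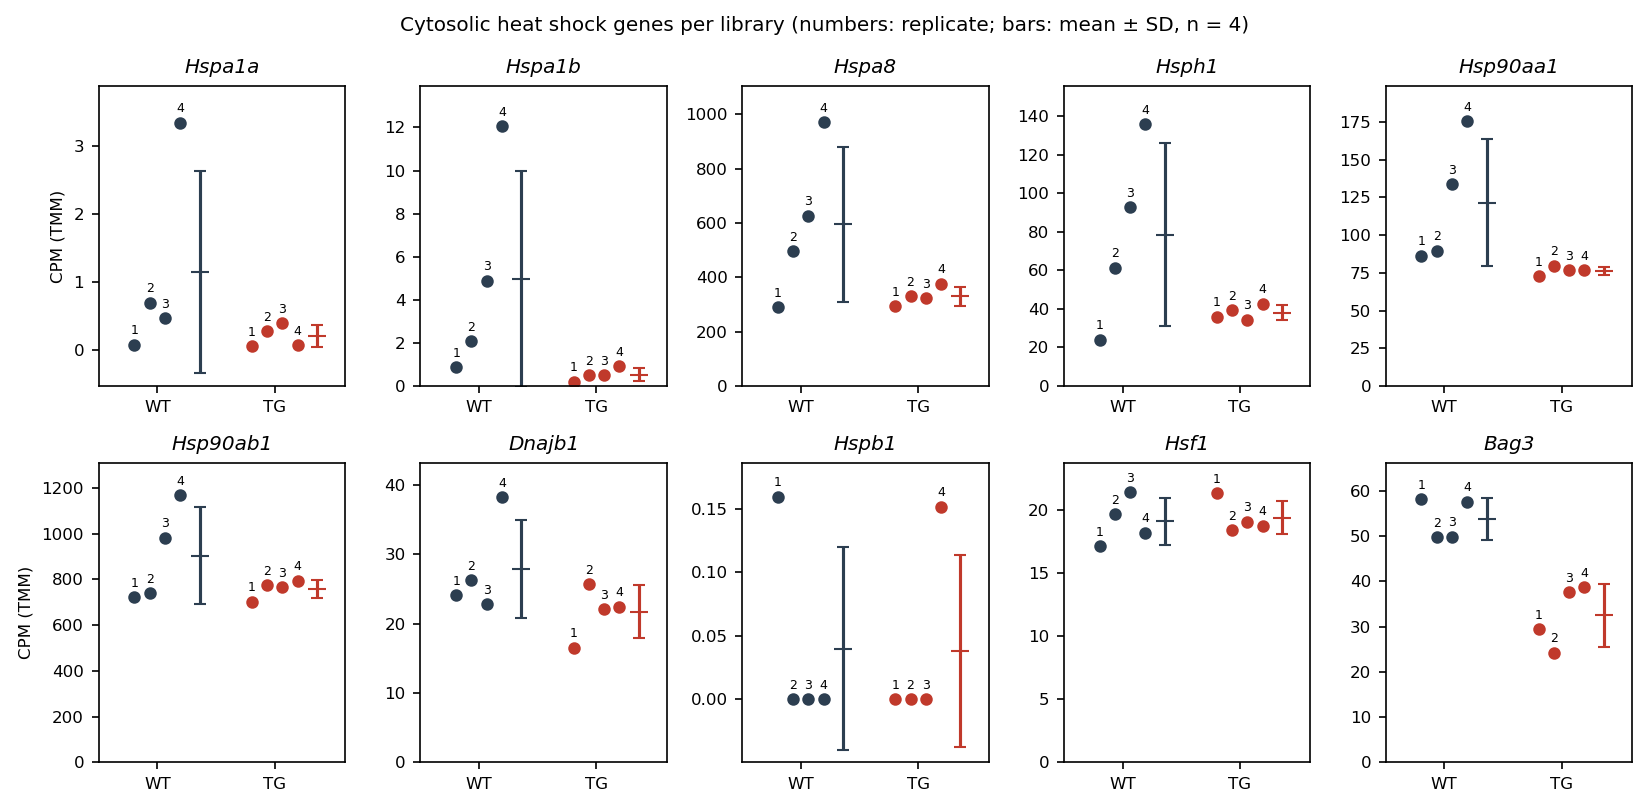
Each panel plots 1 gene: the points are the CPM of single libraries, numbered by replicate, and the bars give the mean ± SD of 4 libraries per group. TG libraries (red) sit close together in Hspa8, Hsph1, Hsp90aa1 and Hsp90ab1, while WT libraries (dark) spread upward to replicate 4, and in Bag3 all 4 TG libraries lie below all 4 WT libraries.

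Hsf1 encodes the transcription factor of the heat shock response (ENSMUSG00000022556, GRCm39, chromosome 15, 76361558 to 76388138, plus strand). It had 21.3, 18.4, 19.0 and 18.7 CPM in TG replicates 1 to 4 and 17.1, 19.6, 21.3 and 18.2 CPM in WT replicates 1 to 4. The groups overlapped, and both the highest and the lowest values belonged to WT libraries. EdgeR gave 0.02 ± 0.10 (log2 fold change ± SE) at an adjusted p of 0.914. The sign is not stable, since it turned negative in 4 of 20 alternative settings, at most to -0.06. HSF1 is regulated mainly as a protein, so its mRNA level is no measure of its activity.

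HSF1 binds as a trimer to heat shock elements, which are inverted repeats of the unit GAA and its complement TTC. The RefSeq promoter windows of GRCm38.p6, from 250 bases before to 50 bases after a transcript start, were searched on both strands for the adjoining pairs GAANNTTC and TTCNNGAA and for 3 units in a row (GAANNTTCNNGAA and TTCNNGAANNTTC, each of which holds both pairs). Windows were matched for 6 of the 10 members, and not for Hspa8, Hsp90aa1, Hsp90ab1 and Hsf1. They had 8 windows, since Hsph1 and Dnajb1 have 2 starts each. At least 1 pair stood in 6 of the 8 windows (5 of the 6 members), against 15.1% of all 32851 windows (7.86% for GAANNTTC and 8.52% for TTCNNGAA). Both windows of Hsph1, which overlap, also held 3 units in a row, as did 0.603% of all windows. The windows of Dnajb1 held neither pair, and the match in Bag3 began 42 bases after the start. The stretches before the start that hold a match are printed below 5′ to 3′ on the strand of the gene, to show the letters that were matched. Capitals mark the pair, which is GAANNTTC in Hspa1a, Hspa1b and Hspb1 and TTCNNGAA in Hsph1. The GAANNTTC match of Hsph1 and its 3 units in a row are not among them, since they begin after the start (the 3 units at 15 or 36 bases, for the 2 starts of its windows). They lie at chr17:34972233-34972280 (minus strand) for Hspa1a, chr17:34959315-34959362 (minus strand) for Hspa1b, chr5:149636342-149636389 (minus strand) for Hsph1 and chr5:135887782-135887849 (plus strand) for Hspb1.
Hspa1a: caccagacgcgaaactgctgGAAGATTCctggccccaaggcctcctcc
Hspa1b: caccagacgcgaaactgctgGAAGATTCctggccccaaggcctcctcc
Hsph1: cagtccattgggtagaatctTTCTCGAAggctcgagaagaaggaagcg
Hspb1: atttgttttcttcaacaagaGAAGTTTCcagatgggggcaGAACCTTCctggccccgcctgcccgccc

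The stretches of Hspa1a and Hspa1b are identical, and the full windows of these neighboring genes share 296 of 300 bases. Their matched pair begins 104 bases before the start, and the pairs of Hspb1 begin 117 and 97 bases before it. A match is a description of the letters and does not show that HSF1 binds there in Paneth cells.

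Hspa1a and Hspa1b encode nearly the same heat-inducible HSP70 and lie side by side on the minus strand of chromosome 17 (GRCm39, 35188166 to 35191132, ENSMUSG00000091971, and 35175412 to 35178214, ENSMUSG00000090877). Of all 75-base windows in their exons, 52.7% of those of Hspa1a also occur in Hspa1b, and only 45.8% and 44.2% of the windows of Hspa1a and Hspa1b occur in no other gene. The division of reads between the copies is therefore uncertain, and the treatment of reads that fit both is stated in no source used here. Hspa1b had 0.188, 0.493, 0.508 and 0.912 CPM in TG replicates 1 to 4 and 0.879, 2.09, 4.89 and 12.1 CPM in WT replicates 1 to 4. All TG libraries were low, and only WT replicate 1 fell within their range. The counts behind these values were 3 to 12 in TG and 11 to 162 in WT. Hspa1b was lower in TG, by -3.26 ± 0.89 (log2 fold change ± SE, edgeR adjusted p = 0.0434). This call was lost when any single TG replicate or WT replicate 3 was left out, with adjusted p of 0.0729 to 0.122, and it was kept in 10 of 18 alternative settings (0.000128 to 0.122).

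Hspa1a had 0.0626, 0.281, 0.395 and 0.0760 CPM in TG and 0.0799, 0.696, 0.468 and 3.35 CPM in WT, which are 1 to 7 counts per TG library and 1, 10, 7 and 45 counts per WT library. WT replicate 4 stood far above all others, WT replicates 2 and 3 lay above the highest TG library, and WT replicate 1 fell within the range of TG. Without a filter on low counts, Hspa1a was called lower (log2 fold change -2.41 ± 0.56, edgeR adjusted p = 0.000484). Hspa1a had failed the default filter, and 45 of its 63 WT counts lay in WT replicate 4, so this call cannot be relied on. In the fit without a filter, 4 members were called lower (Hspa1a, Bag3, Dnajb1 and Hsp90aa1), against 6.28% of 21291 genes. The copies summed to 1 gene had 4, 11, 16 and 13 counts in TG and 12, 40, 80 and 207 counts in WT. Their common log2 fold change was -3.07 ± 0.92, with an edgeR adjusted p of 0.0604, so the summed gene did not pass the threshold. It passed without WT replicate 1 or without WT replicate 4, at -3.42 and -2.07 with adjusted p of 0.0246 and 0.0301.

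Hspa8 encodes HSC70, the HSP70 that cells make without stress (ENSMUSG00000015656, GRCm39, chromosome 9, 40711630 to 40731039, plus strand). It had 292.7, 330.4, 321.9 and 376.2 CPM in TG and 290.6, 496.4, 626.1 and 969.7 CPM in WT. WT replicate 1 lay below all TG libraries, and the other three WT libraries lay above them. EdgeR gave -0.85 ± 0.33 (log2 fold change ± SE) at an adjusted p of 0.122. With single libraries left out it ranged from -1.08 without WT replicate 1, where the adjusted p was 0.00795, to -0.51 without WT replicate 4 (adjusted p = 0.148). Of the 75-base windows in its exons, 87.6% occur in no other gene, and the pseudogene that shares most, Gm15459, had a mean of only 1.56 CPM.

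The inducible HSP70 transcripts can be set against the constitutive one within each library, which removes the scaling between libraries. Per kb of exons, Hspa1a and Hspa1b together amounted to 0.00261, 0.00711, 0.00848 and 0.00810 of Hspa8 in TG and to 0.0102, 0.0171, 0.0264 and 0.0486 of it in WT. The ratio was thus higher in all 4 WT libraries (mean 0.0256 ± 0.0167, SD, n = 4) than in any TG library (0.00657 ± 0.00270, SD, n = 4), and no test was made of it. The gap was narrow and rests on few reads, with 12 counts of the Hspa1 genes in WT replicate 1 and 16 in TG replicate 3. Hspa8 was also lowest of all libraries in WT replicate 1. The unknown treatment of reads that fit both copies also bears on this ratio. With the longest transcript as length, this ratio averaged 0.00184 for TG and 0.00717 for WT, again with all 4 WT libraries above TG, so the size of the ratio depends on the length taken for Hspa8. The inducible genes were therefore a small part of the HSP70 mRNA in every library.

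Hsph1 encodes HSP110, a nucleotide exchange factor that also helps to dissolve aggregates (ENSMUSG00000029657, GRCm39, chromosome 5, 149537636 to 149560156, minus strand). It had 35.9, 39.3, 34.3 and 42.6 CPM in TG and 23.9, 61.3, 92.8 and 135.8 CPM in WT. The WT libraries bracketed the TG libraries, with replicate 1 below all 4 and the others above all 4. Its highest WT library stood 5.68-fold above its lowest, against 1.24-fold in TG. EdgeR gave -1.05 ± 0.50 (log2 fold change ± SE) at an adjusted p of 0.200, and with single libraries left out it ranged from -1.35 without WT replicate 1 (adjusted p = 0.0210) to -0.65 without WT replicate 4 (adjusted p = 0.375).

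Bag3 encodes an exchange factor that couples HSP70 to selective autophagy of misfolded proteins (ENSMUSG00000030847, GRCm39, chromosome 7, 128125283 to 128148705, plus strand). It had 29.4, 24.2, 37.6 and 38.8 CPM in TG and 58.2, 49.8, 49.9 and 57.6 CPM in WT. All WT libraries were above all TG libraries, and the WT values lay close together. Bag3 was lower in TG, by -0.73 ± 0.13 (log2 fold change ± SE, edgeR adjusted p = 0.00344). The call was kept in 19 of 20 alternative settings (adjusted p 1.72e-10 to 0.0680), and was lost in replicates 3 and 4 alone. Unlike Hspa1b, Hspa8 and Hsph1, Bag3 was not low in WT replicate 1, which had its highest value.

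Dnajb1 encodes HSP40, the J-domain partner of inducible HSP70 (ENSMUSG00000005483, GRCm39, chromosome 8, 84334811 to 84339820, plus strand). It had 16.5, 25.7, 22.1 and 22.4 CPM in TG and 24.1, 26.3, 22.8 and 38.2 CPM in WT. Apart from TG replicate 1 at the low end and WT replicate 4 at the high end, the groups covered the same range. EdgeR gave -0.36 ± 0.17 (log2 fold change ± SE) at an adjusted p of 0.161. With single libraries left out it ranged from -0.45 without TG replicate 2 to -0.17 without WT replicate 4.

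Hsp90aa1 encodes the inducible and Hsp90ab1 the constitutive cytosolic HSP90. Hsp90aa1 (ENSMUSG00000021270, GRCm39, chromosome 12, 110656842 to 110669166, minus strand) had 72.8, 79.6, 76.6 and 76.6 CPM in TG and 86.4, 89.8, 133.8 and 175.6 CPM in WT. The groups did not overlap, and WT replicates 1 and 2 stood just above TG while replicates 3 and 4 were much higher. EdgeR gave -0.67 ± 0.21 (log2 fold change ± SE) at an adjusted p of 0.0536, just above the threshold. It passed in 8 of 20 alternative settings, among them DESeq2 (adjusted p = 0.00397) and the fits without WT replicate 1 (0.0227) or WT replicate 2 (0.0216). Of its 75-base exon windows, 71.7% occur in no other gene, and the pseudogene that shares most of the rest, Gm12346, had at most 0.335 CPM.

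Hsp90ab1 (ENSMUSG00000023944, GRCm39, chromosome 17, 45878552 to 45891949, minus strand) had 702.3, 773.3, 765.0 and 793.1 CPM in TG and 723.0, 739.5, 982.4 and 1167 CPM in WT. WT replicates 1 and 2 lay within the range of TG, and replicates 3 and 4 lay above it. EdgeR gave -0.25 ± 0.14 (log2 fold change ± SE) at an adjusted p of 0.231. The value was -0.35 without WT replicate 1 and -0.11 without WT replicate 4, the ends of its range with single libraries left out. Per kb of exons, the ratio of Hsp90aa1 to Hsp90ab1 was 0.122, 0.121, 0.117 and 0.113 in TG and 0.140, 0.142, 0.160 and 0.177 in WT. All 4 WT libraries thus had a higher ratio (0.155 ± 0.0170, SD, n = 4) than any TG library (0.118 ± 0.00377, SD, n = 4), also in replicates 1 and 2, where Hsp90ab1 itself overlapped. No test was made of this ratio.

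Hspb1 encodes HSP25, a small heat shock protein that holds unfolded proteins without using ATP (ENSMUSG00000004951, GRCm39, chromosome 5, 135916760 to 135918417, plus strand). It had 2 counts in TG replicate 4, 2 counts in WT replicate 1 and 0 counts in the other 6 libraries. A count of 0 allows up to 3 counts, which is 0.169 to 0.24 CPM in these libraries. Hspb1 mRNA was therefore at or under the detection limit in every library, and no fold change is given. Of its exon windows, 35.8% are shared with the pseudogene Hsp25-ps1, which had at most 0.320 CPM.

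Between genes, levels are comparable only per length, and the mean over the 8 libraries was taken as CPM per kb of exons. Hsp90ab1 led with a level of 154, followed by Hspa8 (53.3), Hsp90aa1 (21.5), Bag3 (16.5), Dnajb1 (6.57), Hsph1 (5.24), Hsf1 (1.92), Hspa1b (0.982), Hspa1a (0.228) and Hspb1 (0.0373). Constitutive chaperones thus stood at the top and the inducible HSP70 genes and Hspb1 at the bottom. Neighbors in this order were ordered the same way in 7 or 8 of the 8 libraries, apart from Dnajb1 over Hsph1 and Hspa1a over Hspb1, which held in 6 each. With the longest transcript as length, Hspa8 reached a level of 190 beside 194 for Hsp90ab1, with Hsp90ab1 above Hspa8 in 5 libraries, and Hsph1 (9.34) moved above Dnajb1 (6.99). The order of these pairs is therefore not resolved by these data.

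The comparison was repeated within each kind of library. In replicates 3 and 4 alone, 4 members were lower in TG (Hspa1b, Hspa8, Hsph1 and Hsp90aa1), against 0.865% of 12024 tested genes. Of these, Hspa1b had 9 and 12 counts in TG and 73 and 162 in WT, so it could be tested mainly through the WT libraries. Each group held only 2 libraries in these fits. In replicates 1 and 2 alone, Bag3 was the 1 member called lower, against 5.29% of 12061 tested genes. Hsph1 had a log2 fold change of -1.57 (edgeR adjusted p = 0.00911) in replicates 3 and 4 and of -0.19 (0.871) in replicates 1 and 2. For Hspa8 the values were -1.19 (0.0267) and -0.34 (0.419), and for Hsp90aa1 they were -1.01 (0.00911) and -0.21 (0.331). Hspa1b was at -3.60 (0.0198) and -2.14 (0.0728). Bag3 went the other way, with -0.49 (0.0680) in replicates 3 and 4 and -1.01 (0.00201) in replicates 1 and 2.

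The difference itself was tested as an interaction of genotype with the kind of library. At an unadjusted p below 0.05, 4 members passed, against 5.73% of all tested genes. They were Hsp90aa1 (interaction on the log2 scale -0.80 ± 0.19, SE), Bag3 (0.52 ± 0.20), Hsp90ab1 (-0.48 ± 0.21) and Hspa8 (-0.86 ± 0.38). After adjustment no member passed, with edgeR adjusted p of 0.362 to 0.972, and 0.0251% of all tested genes did. A difference between the kinds of library was thus not established for any member. The kind of library goes with the sex that the Y-linked counts mark and with the replicate numbers, and these cannot be told apart.

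**Figure D2:**
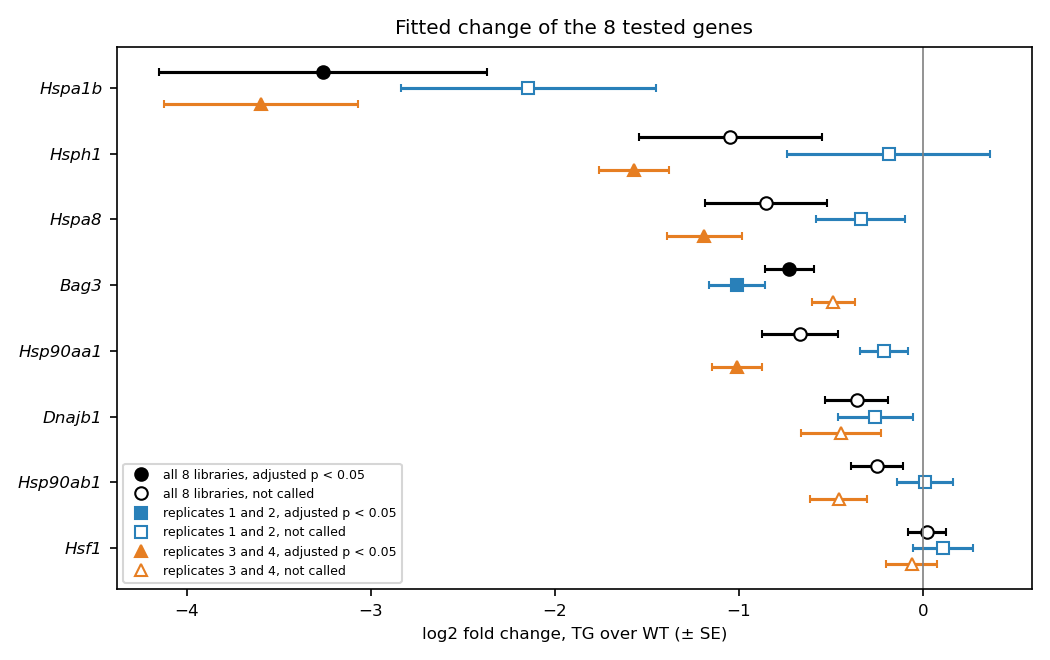
Log2 fold changes (TG over WT, horizontal axis) with SE bars for the 8 tested genes in all 8 libraries (black), replicates 1 and 2 (blue) and replicates 3 and 4 (orange), where filled symbols passed an adjusted p of 0.05. Hsph1, Hspa8 and Hsp90aa1 are further below 0 in replicates 3 and 4, and Bag3 is further below 0 in replicates 1 and 2.

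The members mostly varied more between replicates in WT than in TG. On the scale log2(CPM + 0.5), the SD over the 4 WT libraries was larger than that over the 4 TG libraries in 7 of 8 members, and in 65.5% of all tested genes. The median SD of the members was 0.41 in WT and 0.14 in TG, beside 0.19 and 0.14 for all tested genes. Hspa1b and Hsph1 had WT SDs of 1.37 and 1.07, larger than those of 99.9% and 99.8% of tested genes. In TG, Hsp90aa1 had an SD of only 0.05, larger than that of 6.73% of tested genes. Bag3 was the exception, with 0.12 in WT and 0.32 in TG.

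The members' spread in WT followed the same libraries. WT replicate 4 had the highest value of all 8 libraries for 6 of the 8 members, which held for 10.6% of all tested genes. WT replicate 1 was the lowest WT library for 6 of the 8 members, against 29.5% of all tested genes. Summed over the 10 members, WT replicates 1 to 4 had 1224, 1485, 1934 and 2578 CPM, and TG libraries had 1171 to 1369 CPM. Members are not independent of each other, so their agreement in 1 library is 1 observation.

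**Figure D3:**
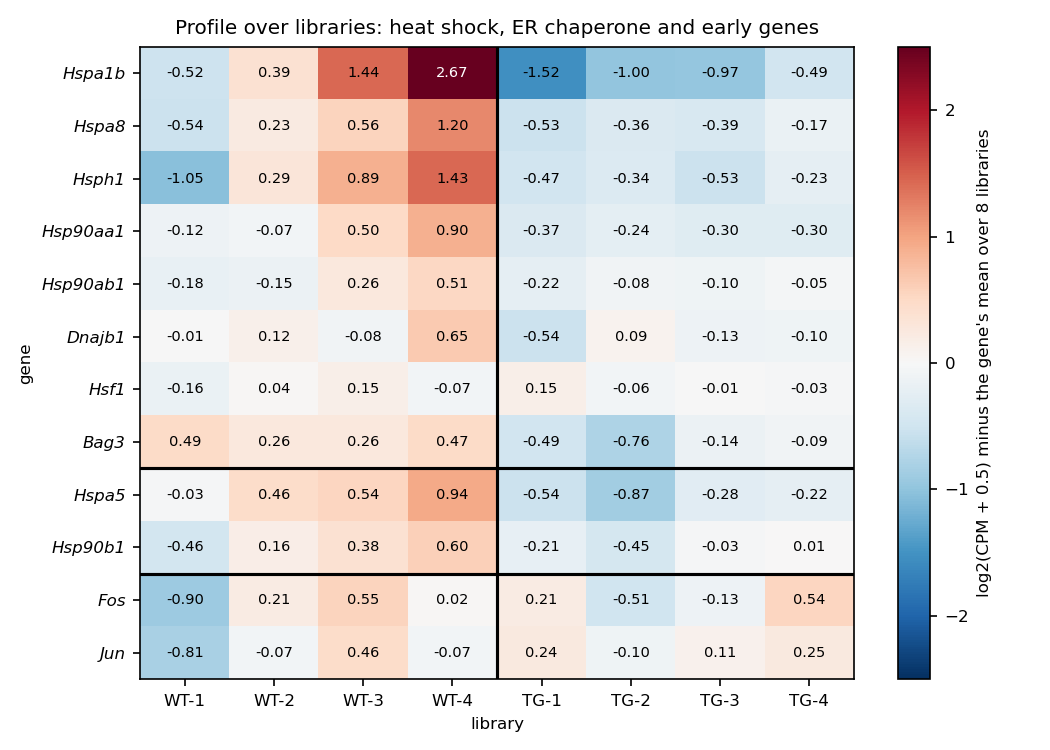
Rows are genes and columns are libraries, and each cell gives log2(CPM + 0.5) minus the mean of the gene over the 8 libraries, for the 8 tested heat shock genes, 2 ER chaperones and 2 immediate early genes. Hspa1b, Hspa8 and Hsph1 reach their highest values in WT replicate 4 and lie below their mean in WT replicate 1, whereas Bag3 is above its mean in all 4 WT libraries.

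For each called member, the tested gene with the most similar profile was sought, by the root mean squared difference of centred log2(CPM + 0.5) over the 8 libraries. Bag3 was closest to Nme1, a nucleoside diphosphate kinase gene, with a difference of 0.06 beside an SD of 0.45 for Bag3 itself. Its log2 fold change of -0.71 follows from this choice, since the profile holds the difference between the groups. Hspa1b had no close neighbor. The nearest, Mvd, a gene of sterol synthesis, differed by 0.73 beside an SD of 1.42 for Hspa1b.

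The other genes of the cytosolic and mitochondrial folding machinery were described through 8 lists with 96 genes, of which 83 were tested. Of these, 18 were lower in TG, against 9.65% of all tested genes, and 1 was higher, against 8.26%. In all, 68 (81.9%, beside 48.7% of all tested genes) had a negative log2 fold change. Their median was -0.20, so the shifts were mostly small. With total counts, 54 were negative and 2 were called lower, against 2.20% of all tested genes, while 68 lay below the median of all genes under both scalings. Without TG replicate 1 or TG replicate 2, 6 genes were called lower, against 4.58% and 4.72% of all tested genes.

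Among other genes of the HSP70 family and of its cochaperones, 3 of 12 tested genes were lower, against 9.65% of all tested genes, and 0 were with total counts, against 2.20%. Hspa4, another HSP110 family member, had 93.9 to 106.4 CPM in TG and 118.6 to 138.4 CPM in WT, with a log2 fold change of -0.39 (edgeR adjusted p = 0.00743). The exchange factor genes Hspbp1 and Bag1 had log2 fold changes of -0.40 and -0.29. Bag6, at 0.15, and St13, at -0.22, did not pass the test. The list median was -0.21.

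Of 13 genes for cytosolic J-domain proteins, 1 was lower, Dnaja1, a share no larger than the 9.65% of all tested genes. It is a general partner of HSC70 and had 22.9, 23.0, 25.9 and 33.1 CPM in TG and 34.1, 40.0, 43.4 and 56.7 CPM in WT. The groups did not overlap, and the log2 fold change was -0.73 ± 0.16 (SE, edgeR adjusted p = 0.00860), close to that of Bag3. Dnaja2 and Dnajc5 had -0.20 and -0.16 and did not pass.

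Among HSP90 cochaperones, 3 of 16 tested genes were lower, against 9.65% of all tested genes (0 with total counts, against 2.20%): Ptges3, which encodes p23 (log2 fold change -0.41), Cacybp (-0.39) and Ahsa1, which encodes the activator of the HSP90 ATPase (-0.34). The 2 most abundant uncalled genes, Fkbp4 and Cdc37, were at -0.14 and -0.04, and the list median was -0.11. Cdc37 turned positive with total counts (0.07), and Fkbp4 in replicates 1 and 2 alone (0.11).

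Of 7 genes for small heat shock proteins other than Hspb1, 4 had 0 counts in every library and 2 were tested. Hspb8, the partner of BAG3 in chaperone-assisted autophagy, had 3.57, 5.0, 5.14 and 2.81 CPM in TG and 18.1, 16.6, 8.5 and 14.3 CPM in WT. All WT libraries were higher, and the lowest of them was WT replicate 3. Its log2 fold change was -1.78 ± 0.25 (SE, edgeR adjusted p = 0.00111), the largest decrease among the 83 genes, and the call was kept in 18 of 19 alternative settings. Hspb6 was at -0.45 and did not pass.

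The chaperonin TRiC folds actin and tubulin, and prefoldin delivers clients to it. All 14 genes of this list had negative log2 fold changes under every scaling tried, between -0.52 and -0.17 with TMM factors, and 6 were lower in TG, against 9.65% of all tested genes (4 with RLE factors, against 9.50%, and 0 with total counts, against 2.20%). Cct3 had the largest change, with 76.4 ± 9.22 CPM in TG and 109.8 ± 15.8 CPM in WT (SD, n = 4 each, log2 fold change -0.52, edgeR adjusted p = 0.00721). Among the called genes, Cct6a, Cct7 and Tcp1 came next with -0.33, -0.29 and -0.29. Cct4 and Cct8, each at about -0.24, did not pass.

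Of 12 mitochondrial chaperone genes, Grpel1 and Clpx were lower, with log2 fold changes of -0.32 and -0.34, and with total counts 0 of the 12 were. The shares over all tested genes were 9.65% and 2.20%. The main chaperones Hspa9 and Hspd1 were at -0.25 and -0.24 and did not pass. Among heat shock factors and their regulators, 9 of 12 were tested. Of these, 1 was lower and 1 was higher, near the 9.65% and 8.26% of all tested genes. With total counts 0 were lower, against 2.20%. Vcp, a segregase that extracts ubiquitinated proteins and also acts on HSF1 complexes, was lower (-0.49, edgeR adjusted p = 0.00770). Sirt1, a deacetylase of HSF1, was higher (0.44, edgeR adjusted p = 0.0354), though its groups overlapped. Ywhae (-0.19) and Ep300 (0.16) did not pass. Of 5 tested ubiquitin and other heat-inducible genes, 1 was lower, against 9.65% of all tested genes, and 0 were with total counts, against 2.20%. The called gene was Hmox1, with 1.65 ± 0.24 CPM in TG and 3.22 ± 1.13 CPM in WT (SD, n = 4 each, log2 fold change -0.95, edgeR adjusted p = 0.0274). The polyubiquitin gene Ubb was at -0.01 and Sqstm1 at -0.11, and both turned positive with total counts (0.12 and 0.02). Of the called genes in these 8 lists that are named here, Dnaja1, Hspb8, Cct3, Vcp and Hspa4 kept their call in 16 to 18 of 19 alternative settings, and the others in 9 to 15.

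**Figure D4:**
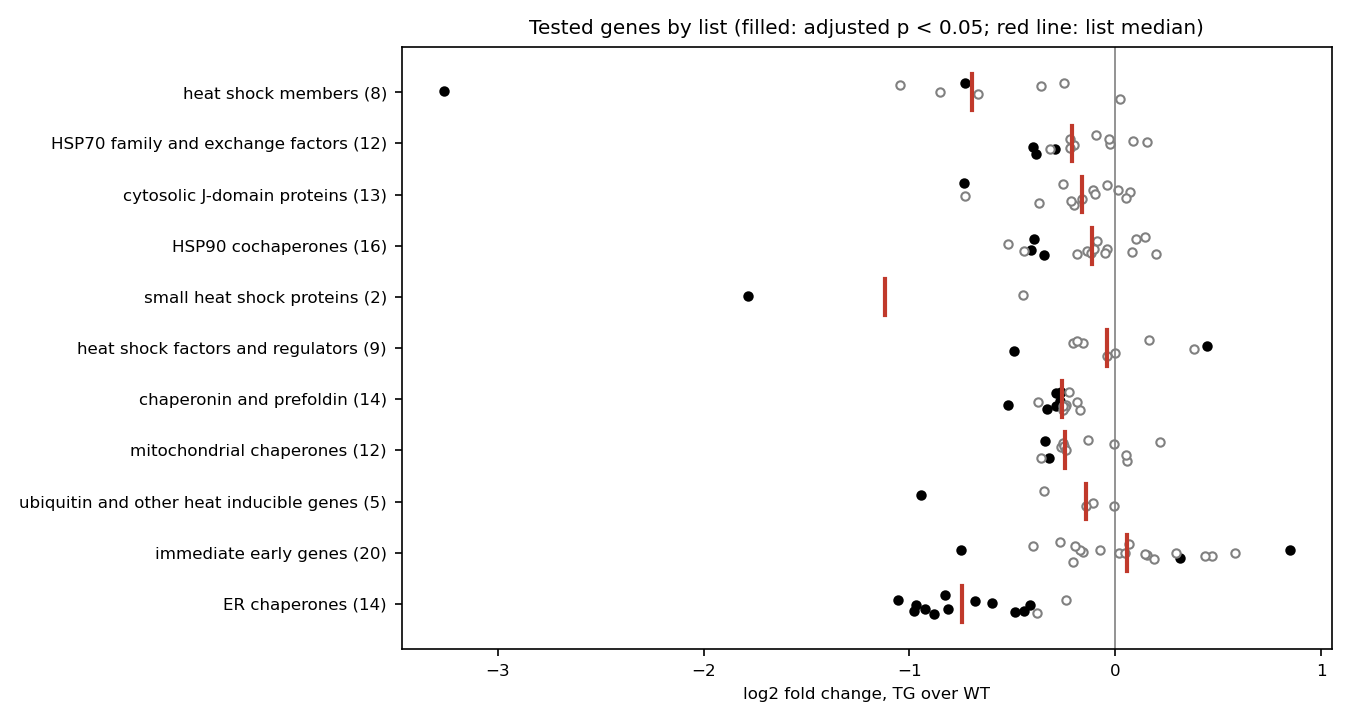
Each point is the log2 fold change (TG over WT, horizontal axis) of 1 tested gene in the list named at the left with its number of tested genes. Filled points passed an adjusted p of 0.05, and red lines mark list medians, which lie at -0.70 for the heat shock members, near 0 for immediate early genes and at -0.75 for ER chaperones.

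Immediate early genes, which respond within minutes to cell isolation, were examined because sorting requires dissociated tissue. Their summed level was 891 to 1122 CPM in TG and 863 to 1113 CPM in WT, and the median log2 fold change of the 20 tested genes was 0.06. Nr4a1 (0.85) and Myc (0.32) were higher in TG, against 8.26% of all tested genes. Atf3 (-0.75) was lower, against 9.65%, though its groups overlapped. Jund (-0.27) and Btg2 (0.16) did not pass. These calls are near the shares of all tested genes. With total counts, 0 were lower, against 2.20% of all tested genes, and 1 was higher. Of 19 alternative settings, Nr4a1 kept its call in 18, Atf3 in 12 and Myc in 10. Fos and Jun, named after their values were seen, were lowest of all 8 libraries in WT replicate 1, at -0.90 and -0.81 from their means on the log2 scale. Of the 20 tested genes, 9 were at their lowest of all 8 libraries in WT replicate 1, against 21.3% of all tested genes, and 3 were at their highest there, against 20.4% (Jund at 196 CPM, Fosl2 at 69.2 CPM and Junb at 63.6 CPM). In WT replicate 4, Fos and Jun were at 0.02 and -0.07, near their means, whereas Hspa1b, Hspa8 and Hsph1 were at their highest there. Whether handling contributed to the members' values was not tested.

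In the ER, 12 of 14 chaperone genes were lower in TG, against 9.65% of all tested genes. They numbered 6 with total counts (against 2.20% of all tested genes), 8 in replicates 1 and 2 alone (against 5.29% of all tested genes) and 6 in replicates 3 and 4 alone (against 0.865%). The list had a median log2 fold change of -0.75 and summed levels of 3276 to 4739 CPM in TG and 4996 to 7977 CPM in WT. Hspa5, the HSP70 of the ER, had 665.8, 529.5, 798.1 and 834.0 CPM in TG and 947.6, 1330.3, 1403 and 1859 CPM in WT. Like its cytosolic relative Hspa8, it was highest in WT replicate 4 and, within WT, lowest in replicate 1, but its groups did not overlap. EdgeR gave -0.97 ± 0.19 (log2 fold change ± SE) at an adjusted p of 0.00661. Hsp90b1, the HSP90 of the ER, was at -0.38 (edgeR adjusted p = 0.201), with WT replicate 1 below all TG libraries. In the remaining marker lists, 2 of 7 stem cell genes were higher, against 8.26% of all tested genes, and 1 was lower, against 9.65%, and none of the 8 goblet, 8 proliferation and 5 tested tuft markers was called, numbers at which these shares give few calls. Of 8 enteroendocrine markers only 3 could be tested, with a median log2 fold change of -1.66 and no call, and of 10 immune markers only 1 could be tested, which was not called.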

How the data were processed

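RNA of FACS-sorted mouse Paneth cells was measured in 8 libraries made with a stranded mRNA kit. The deposited file is 1 table of raw counts, in whole numbers, for each Ensembl ID in each library, and no column was left out. The submitters' processing notes name FastQC 0.12.0, STAR 2.7.0a, DESeq2 and mm39. The counting tool, its strand setting and its treatment of reads with several alignments are stated in no source used here.

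Groups and replicate numbers came from the labels. The members and all gene lists were chosen with earlier results of these data known. GENCODE M39 on GRCm39 gave symbols, positions and exon lengths for 54749 of 55414 IDs. The other 665 held at most 0.0150% of a library's counts. Group was the only term in robust quasi-likelihood fits of the 8 libraries (edgeR 4.0.16 under R 4.3.3), after TMM scaling and the default filter by group (11929 genes), and Benjamini-Hochberg adjustment over all tested genes at 0.05. The SE of a log2 fold change was derived from its F statistic, whose root is the ratio of the change to its SE. CPM used TMM factors, and log2 values for spreads and profiles a pseudocount of 0.5. Shared sequence was counted over 75-base windows of exons. Library totals were compared by an exact permutation test.

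All members were named. From each wider list, up to 4 called genes with the smallest p and up to 2 uncalled genes with the highest CPM were named, with Hspa5 and Hsp90b1 of the ER list, Lyz1 of the marker lists and the genes nearest in profile to called members. Pseudogenes that share sequence with a member, Fos, Jun, Fosl2, Junb, Mptx2, Mmp7, Ang4, Cd3e and Cd79a fall outside this rule and were named after their values were seen.

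Alternatives were DESeq2 1.42.0, limma voom (limma 3.58.1), RLE factors, total counts, no filter, factors without alpha-defensin genes, a replicate block, genes over 1 CPM in 4 libraries, the kind of library as covariate, replicates 1 and 2 or 3 and 4 alone, each library left out, the summed Hspa1 genes and the longest transcript as length. The steps for TG over WT were tested on simulated data. With 200 of 11929 genes (11787 tested) shifted by 1 log2 unit, 84.5% of them were recovered with 5 false calls, and 1 gene was called when none was changed. The simulated counts were independent between genes and had the same dispersion in both groups. The members varied more in WT and varied together, so the simulation does not show how the steps perform for them.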

Additional observations from a re-analysis of the deposited data

How the results depend on the processing

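The members called lower numbered 4 without a filter, with Hspa1a among them on few counts. With a filter of 1 CPM in 4 libraries, which removed Hspa1b, they numbered 1. They numbered 1 in replicates 1 and 2 and 4 in replicates 3 and 4, and 1 to 5 when single libraries were left out, with 5 without WT replicate 1 and 1 when any single TG replicate or WT replicate 3 was left out. No setting called a member higher. Genes called lower numbered 262 with total counts, 638 in replicates 1 and 2, 104 in replicates 3 and 4 and 550 to 1183 with a library left out, and genes called higher 500, 113 and 485 to 1045 in the last 3 of these, against 1151 and 985. TG replicates 1 and 2 set the lower ends. In the 8 wider lists, 2 genes were lower with total counts, 5 in replicates 1 and 2, 4 in replicates 3 and 4 and 6 to 24 with a library left out, and 0 were higher with voom or in replicates 3 and 4 and 0 to 1 with a library left out. Beyond the smaller number of libraries or genes in some of these settings, the cause was not tested.

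Hspa1b lost its call with voom (-3.38), without a filter (-3.27) and in replicates 1 and 2 (-2.14), and ranged from -3.63 to -2.35 with a library left out. Bag3 lost it in replicates 3 and 4 (-0.49) and ranged from -0.82 to -0.61. In replicates 3 and 4, Hspa8 (-1.19), Hsph1 (-1.57), Hsp90aa1 (-1.01) and the summed Hspa1 genes (-3.44) passed. Their ranges with a library left out were -1.08 to -0.51, -1.35 to -0.65, -0.80 to -0.44 and -3.42 to -2.07. Hsp90aa1 also passed with DESeq2 (-0.67), voom (-0.74), no filter (-0.68) and the kind of library as covariate (-0.62), Dnajb1 without a filter (-0.37), and the summed genes with DESeq2 (-3.07) and the covariate (-2.90). Hsp90ab1 changed sign in replicates 1 and 2 (0.011). Hsf1 did so in replicates 3 and 4 (-0.062) and without TG replicate 1, WT replicate 1 or WT replicate 4, within -0.030 to 0.077. Sign changes of uncalled genes were Cdc37 with total counts (0.072), in replicates 3 and 4 (0.023) and without TG replicate 1 (range with a library left out -0.083 to 0.020), Fkbp4 in replicates 1 and 2 (0.11), Sqstm1 with total counts (0.020) and in replicates 3 and 4 (0.011), and Ubb with total counts (0.12) and without TG replicate 4, WT replicate 1 or WT replicate 4 (range -0.044 to 0.024).

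Same-numbered libraries deviated together weakly (correlations of 0.08, 0.07, 0.29 and 0.23), so the replicate numbers were not taken as pairs. With a replicate block, Hsp90aa1 (-0.61) and the summed Hspa1 genes (-2.78) passed, and no other member changed its call. With the longest transcript as length, levels became 190 for Hspa8, 9.34 for Hsph1, 194 for Hsp90ab1 and 3.67 for Hsf1. The ratio of Hspa1 genes to Hspa8 became 0.00184 in TG and 0.00717 in WT, and that of Hsp90aa1 to Hsp90ab1 became 0.110 in TG. Depth limits Hspa1a, Hspa1b and Hspb1, with at most 12 counts in any TG library.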
